A study of Mus musculus with 2 samples.

Results

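Interleukins and their receptors were examined in RNA from mouse mammary gland. The members are all protein-coding genes whose symbol begins with Il and a digit, and this rule took 82 of 21474 protein-coding genes in the gene tables. Of these, 37 encode ligands, 40 encode receptor subunits or decoy receptors, and 5 encode receptor antagonists, soluble inhibitors or, in the case of Il4i1, an enzyme. The rule used names and no measured value. The tissue came from C57BL/6J mice aged 8 weeks, an inbred laboratory strain, and each library was made from animals of both sexes pooled. The libraries were stranded, with paired reads of 76 nt from poly(A) RNA longer than 200 nt after removal of ribosomal RNA. Both libraries belong to 1 group, are labelled biological replicates 1 and 2, and share 1 donor label, so no condition was compared and no p-value is given. Differences between the libraries measure the spread of 2 samples, part of which may be technical. Where 2 values are joined, the first is from replicate 1. Levels are TPM, a scale of transcript abundance that corrects for transcript length and library size, and a fragment is 1 sequenced read pair.

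Interleukins are secreted proteins through which immune, epithelial and stromal cells signal to each other. Most act through receptors built from a subunit specific to the ligand and a signalling subunit shared by a family, such as Il2rg (the common gamma chain), Il6st (gp130), Il1rap in the IL-1 family and Il17ra in the IL-17 family. The common gamma, gp130 and related receptors signal through JAK kinases and STAT factors, whereas IL-1 and IL-17 receptors use adaptors of their own. The mammary gland is a fat pad with a branching epithelium, resident macrophages, mast cells and lymphocytes, and a lymph node.

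The summed expected counts over genes were 56323489 and 42400470 fragments. Markers of luminal epithelium summed to 723 and 1253 TPM, those of basal epithelium to 592 and 437 TPM and those of adipocytes to 2063 and 2251 TPM, and every marker in these 3 lists was above 1 TPM in both libraries. Within the adipocyte list Adipoq was lower in replicate 2, at 1462 and 892 TPM, and so was Lep, at 98.3 and 70.4 TPM, while Plin1 was higher, at 502 and 1290 TPM. Skeletal muscle markers (Acta1, Ckm, Mylpf) summed to 19089 TPM in replicate 1 and 8.82 TPM in replicate 2, and mitochondrial genes took 17.4% and 4.28% of all TPM. Keratinocyte markers (Krt1, Krt10, Krtdap) summed to 75.99 and 3.59 TPM. In bulk tissue, fewer cells of a type and less RNA per cell cannot be told apart.

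Receptor RNA was widespread and ligand RNA scarce. At least 1 TPM in both replicates was reached by 29 of 40 receptor genes (72.5%) and by 7 of 37 ligand genes (18.9%), beside 58.3% of all protein-coding genes. The median of the mean TPM was 4.95 for receptors, 0.140 for ligands and 3.64 for all protein-coding genes. Summed over the genes, receptors reached 702 and 975 TPM and ligands 124 and 164 TPM. The floor of detection was set at 3 fragments in a library. In both libraries 16 ligands and 2 receptors were at or under it, and 12 ligands and 1 receptor, Il1rapl1, had no fragment in either.

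The 7 ligands above 1 TPM in both replicates do not include the cytokines best known from activated T cells. Il34, an alternative ligand of the CSF-1 receptor of macrophages, was the highest by mean TPM (chromosome 8, 110741829 to 110805924, mm10). Its TPM was 42.4 and 46.7, with a mean of 44.6 ± 3.07 (SD, n = 2). Il16, whose precursor is processed to a chemoattractant that binds CD4, followed at 27.2 and 34.4 TPM. Summed over transcripts of at least 500 nt, Il34 was at 29.1 and 31.8 TPM and Il16 at 27.2 and 34.4 TPM, so that Il34 no longer led. The libraries lay close together for these 2 genes. They lay further apart for the IL-17 family ligands Il17d, at 12.5 and 38.0 TPM, and Il17b, at 9.29 and 24.4 TPM. Il33, an alarmin kept in the nucleus of epithelial and stromal cells, was higher in replicate 1, at 18.5 and 7.25 TPM. Il15, which supports NK cells and memory T cells, stood at 5.76 and 3.71 TPM. Il12a, the p35 chain of IL-12, stood at 2.06 and 2.91 TPM, but its partner chain Il12b was at 0.53 TPM in each library. Il7, a survival factor for lymphocytes, crossed the limit in replicate 2 alone, at 0.87 and 1.63 TPM from 134 and 131 fragments. In replicate 2, 0.95 TPM of this went to Il7-202, which has no coding sequence and no fragment in replicate 1. Coding transcripts took 100% of Il7 in replicate 1 and 41.5% in replicate 2.

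**Figure D1:**
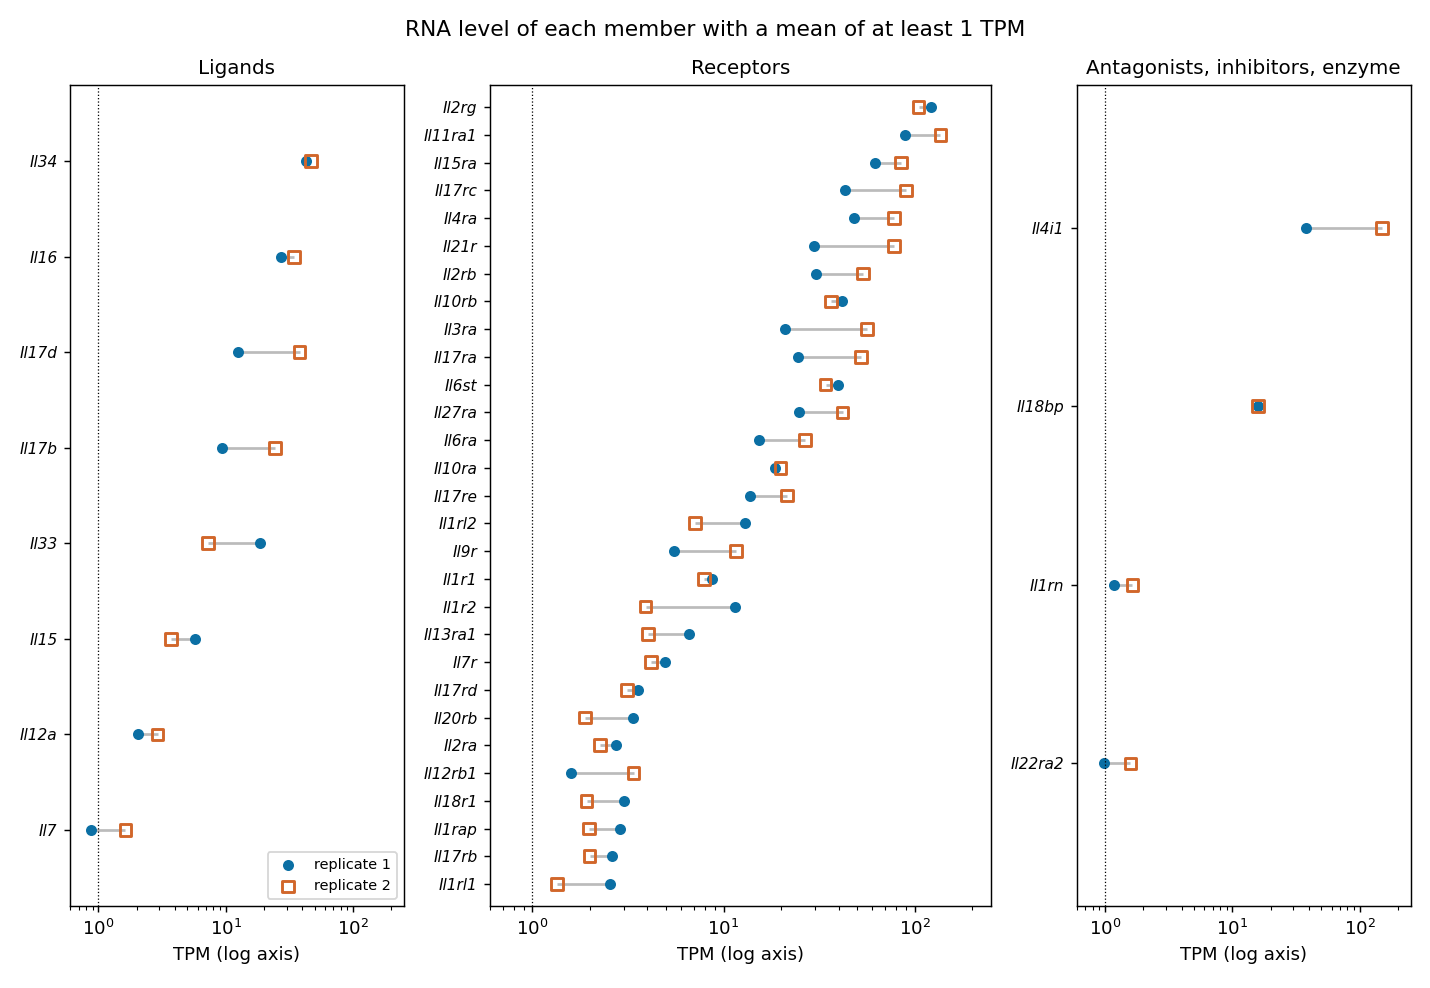
TPM of the 41 members with a mean of at least 1 TPM (log axis) in replicate 1 (filled circles) and replicate 2 (open squares), in panels by role, with a dotted line at 1 TPM. By mean TPM, receptors reach from Il1rl1 at 2.56 and 1.34 TPM to Il2rg at 122 and 105 TPM, while 8 ligands enter the plot.

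Of the other ligands, 13 were above the floor in at least 1 library with a mean under 1 TPM. Inflammatory IL-1 ligands were among these and had more fragments in replicate 1. Il1b gave 40 and 6 fragments, Il1a 33 and 5, and the IL-36 ligands Il1f8 and Il1f9 gave 8 and 7 fragments in replicate 1 and none in replicate 2. Il18, matured like Il1b by caspase 1, gave 23 and 12 fragments. The counts ran the other way for Il11, with 9 and 17 fragments, Il17c, with 4 and 12, and Il2, with 1 and 11. Il27, Il12b, Il10 and Il13 gave 22 and 26, 38 and 27, 24 and 9, and 5 and 5 fragments. Il4, a type 2 cytokine, gave 8 and 2 fragments. Il5, Il17f, Il23a and Il25 gave at most 3 fragments in a library. Ligands with no fragment in either library were Il3, Il6, Il9, Il17a, Il19, Il20, Il21, Il22, Il24, Il31, Il1f6 and Il1f10. For Il6, the acute-phase cytokine, 3 fragments would correspond to 0.0794 and 0.112 TPM, so a level below this was not detectable at this depth.

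Promoter sequences of 300 bases (250 before and 50 after the start, RefSeq, GRCm38.p6) were found for 65 of the 82 members and are compared here because ligands and receptors differed in level. Not matched were Il7, Il10, Il15, Il17b, Il23a, Il24, Il25, Il27, Il34, Il1f6, Il10ra, Il10rb, Il12rb1, Il17ra, Il22ra2, Il27ra and Il2rb. The letters TATAAA, the core of the TATA box, were searched on the sense strand with the first base 40 to 20 bases before the start. They were present in 7 of 33 promoters of 27 ligand genes (21.2%), 1 of 40 promoters of 34 receptor genes (2.5%) and 2.49% of 19931 promoters of protein-coding genes. Anywhere in the 300 bases and on either strand they were present in 33.3%, 5% and 11.96%. The ligand promoters with the motif near the start belong to Il1a, Il1b, Il2, Il13, Il17a, Il17f and the downstream start of Il33, and the receptor promoter to the decoy receptor Il13ra2. Of these genes only Il33 exceeded 1 TPM in both libraries, and it mostly used its other start, as the transcripts below show. Il15, Il17b and Il34, also above 1 TPM in both, had no matched promoter and could not be searched. Promoters of a gene with several starts overlap in part, and a match is a description of letters, not of binding. The median ratio of observed to expected CpG was 0.214 in ligand, 0.320 in receptor and 0.593 in all protein-coding promoters. The last 80 bases before the start follow for 2 ligands with the motif and few or no fragments and for both starts of Il33. They are also given for Il2rg, the highest receptor gene by mean TPM, which has no motif there. Capitals mark TATAAA, each sequence ends at the base before the start, and all read 5′ to 3′ on the gene's own strand.
Il1b, chr2:129371140-129371219, minus strand: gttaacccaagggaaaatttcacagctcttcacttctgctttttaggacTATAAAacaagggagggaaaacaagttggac
Il17a, chr1:20730825-20730904, plus strand: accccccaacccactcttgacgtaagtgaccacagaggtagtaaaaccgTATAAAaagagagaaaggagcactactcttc
Il33, downstream start, chr19:29945710-29945789, plus strand: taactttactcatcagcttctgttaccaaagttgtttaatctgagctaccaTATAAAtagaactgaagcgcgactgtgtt
Il33, upstream start, chr19:29925033-29925112, plus strand: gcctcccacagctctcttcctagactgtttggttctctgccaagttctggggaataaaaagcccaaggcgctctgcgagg
Il2rg, chrX:101268256-101268335, minus strand: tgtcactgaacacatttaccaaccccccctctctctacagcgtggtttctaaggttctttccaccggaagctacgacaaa

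The common gamma family held the most abundant receptor RNA, with 9 of 10 receptor genes above 1 TPM in both replicates and a sum of 313 and 421 TPM. Il2rg itself (chromosome X, 101264378 to 101268255, mm10), shared by the receptors for IL-2, IL-4, IL-7, IL-9, IL-15 and IL-21, had 122 and 105 TPM (mean 114 ± 12.4, SD, n = 2) and ranked 1165 among protein-coding genes. Il4ra, the chain that binds IL-4 and also forms the type II receptor for IL-13, stood at 48.1 and 78.0 TPM. Il2rb, shared by the IL-2 and IL-15 receptors, stood at 30.6 and 53.6 TPM. The high-affinity IL-2 subunit Il2ra was far lower than either of its partner chains, at 2.75 and 2.26 TPM. Il21r, found on B, T and NK cells, stood at 29.7 and 77.7 TPM. Il7r stood at 4.96 and 4.19 TPM, and its libraries lay close together. Il9r stood at 5.51 and 11.6 TPM, and Il13ra1, the partner of Il4ra on non-lymphoid cells, at 6.60 and 4.03 TPM. Il15ra, which presents IL-15 to neighbouring cells, was listed at 62.2 and 84.9 TPM, and the replicate 2 value, taken up with the transcripts, rests mostly on 1 short transcript. The decoy receptor Il13ra2 gave 6 and 3 fragments.

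In the gp130 family, 4 of 6 receptor genes passed 1 TPM in both replicates. Il11ra1, the IL-11 subunit (chromosome 4, 41699989 to 41769474, mm10), was the highest of them, at 88.7 and 137 TPM. In replicate 2 it was also above Il2rg. The shared chain Il6st stood at 39.5 and 34.2 TPM. Il27ra, for IL-27, stood at 24.9 and 41.96 TPM and Il6ra, for IL-6, at 15.4 and 26.7 TPM. By TPM these 3 specific subunits were higher in replicate 2 and the shared chain was slightly lower. On spike-in totals the shared chain was higher. With GC content removed, the log2 count ratio was 0.059 for Il6st and -0.007 for Il11ra1, so both directions turned by counts. Il31ra, the itch receptor subunit, gave 125 and 38 fragments, a level of 0.84 and 0.36 TPM.

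Il11ra2 is a near copy of Il11ra1 on the same chromosome, and fragments can be split between them with uncertainty. It was listed at 0.56 and 0.86 TPM, from 26.3 and 28.7 expected fragments. Over 1299 coding bases the genes differ at 13 positions, an identity of 99%. Coding bases 337 to 396, counted from 1 at the start codon, are shown because they hold the first difference, C357T (Il11ra1 first), in capitals. The other bases of this stretch are the same in both genes.
Il11ra1: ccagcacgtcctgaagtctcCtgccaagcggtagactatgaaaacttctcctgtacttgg
Il11ra2: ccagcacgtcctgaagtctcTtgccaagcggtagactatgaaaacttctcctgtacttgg

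All 5 IL-17 receptor genes passed 1 TPM in both replicates, and the family summed to 87.5 and 169 TPM. Il17ra, the shared subunit, stood at 24.5 and 52.4 TPM, and Il17rc, its partner for IL-17A and IL-17F, at 43.1 and 89.9 TPM. Il17re, the epithelial receptor for IL-17C, stood at 13.8 and 21.6 TPM. These 3 were higher in replicate 2. With GC content removed, Il17rc hardly differed, by 0.0007 on log2(TPM + 1) and -0.026 on the log2 count ratio. Il17rd, at 3.56 and 3.13 TPM, and Il17rb, the subunit for IL-25 and IL-17B, at 2.61 and 1.99 TPM, were lower in level and slightly higher in replicate 1, a direction that turned on spike-in totals.

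The IL-1 receptor family was lower in level, with 6 of 9 genes above 1 TPM in both replicates and a sum of 42.5 and 24.8 TPM. All 6 were lower in replicate 2 by TPM and by counts scaled to total counts, TMM or size factors. With GC content removed, Il1r1 and Il1rap turned higher, and Il18r1 did so by counts alone. On spike-in totals Il1r1, Il18r1 and Il1rap turned higher. Il1r1, the signalling receptor for IL-1, stood at 8.68 and 7.90 TPM, and its decoy Il1r2, which binds IL-1 without signalling, at 11.6 and 3.91 TPM. Il1rl2, the IL-36 receptor, stood at 13.0 and 7.12 TPM. The decoy was thus above the signalling receptor in replicate 1 and below it in replicate 2. Il18r1 stood at 3.0 and 1.92 TPM. Il1rap, the accessory chain of the IL-1, IL-33 and IL-36 receptors, stood at 2.88 and 1.98 TPM, and Il1rl1, the IL-33 receptor also called ST2, at 2.56 and 1.34 TPM. Il18rap, the second IL-18 chain, gave 142 and 70 fragments, a level of 0.84 and 0.60 TPM. The brain receptors Il1rapl1 and Il1rapl2 gave 1 fragment between them.

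In the IL-10 family, Il10rb, shared by the receptors for IL-10 and IL-22, stood at 41.9 and 36.5 TPM, and Il10ra at 18.7 and 19.9 TPM. Il20rb stood at 3.34 and 1.89 TPM. The subunits for epithelial IL-10 relatives were scarce. Il22ra1 gave 62 and 15 fragments and Il20ra gave 22 and 2. Il3ra, the IL-3 subunit, stood at 21.1 and 56.4 TPM, while Il5ra, for the eosinophil factor IL-5, gave 11 and 7 fragments. Il12rb1, shared by IL-12 and IL-23 receptors, stood at 1.6 and 3.38 TPM. Its partners Il12rb2 and Il23r stood at 1.07 and 0.82 TPM and at 0.10 and 0.09 TPM.

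Of the 5 members that are neither ligands nor receptors, Il4i1 was the highest. It encodes a secreted amino acid oxidase made by antigen-presenting cells and B cells (chromosome 7, 44816387 to 44840809, mm10), and it stood at 38.0 and 149 TPM. Il18bp, the soluble inhibitor of IL-18, stood at 15.8 TPM in both libraries, from 811 and 575 fragments, well above Il18 itself. Il1rn, the IL-1 receptor antagonist, stood at 1.18 and 1.64 TPM. Il22ra2, the soluble inhibitor of IL-22, stood at 0.98 and 1.58 TPM although Il22 had no fragment. Il1f5, the IL-36 receptor antagonist, gave 37 fragments in replicate 1 and none in replicate 2.

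Ligands were then set beside their receptors. A receptor was counted as complete where every subunit had at least 1 TPM in both replicates, and 20 of 27 receptors were. The 7 incomplete ones were those for IL-5, IL-12, IL-18, IL-22, IL-23 and IL-31 and the type I IL-20 receptor. Of 34 ligands with a receptor in the list, 24 had a complete receptor, and 4 of these, Il15, Il17b, Il33 and Il34, also passed 1 TPM themselves. For the other 20 the receptor was complete and the ligand was not at 1 TPM in both, and for the remaining 10 the receptor was incomplete. Of those 10 only Il12a passed 1 TPM itself, and it was not counted as present because IL-12 also needs the Il12b chain. RNA of ligand and receptor in 1 tissue does not show which cells carry them.

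The balance differed among the 4 pairs. Il34 was lower than its receptor gene Csf1r, at 76.7 and 60.1 TPM. By gene level Il15 was lower than each of its 3 subunits in both libraries. This held with Il15ra summed over transcripts of at least 500 nt, which put Il15ra below Il2rb by mean. That sum includes retained-intron transcripts. Il15ra-201, with 263 codons the longest complete coding sequence of Il15ra, stood at 2.30 and 3.10 TPM. Il15 was above this transcript in both libraries, at 5.76 and 3.71 TPM. By gene level the ligand was the higher for Il33, whose 18.5 and 7.25 TPM stood beside 2.56 and 1.34 TPM of Il1rl1. It was also the higher for Il17b, whose 9.29 and 24.4 TPM stood beside 2.61 and 1.99 TPM of Il17rb. Among ligands without a fragment, Il21 had the highest receptor, with Il21r as its lowest subunit, and Il3, Il6, Il9 and Il17a also had complete receptors. The IL-27 chain Il27, at 0.63 and 1.05 TPM, was far below its partner chain Ebi3, at 17.4 and 30.7 TPM.

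**Figure D2:**
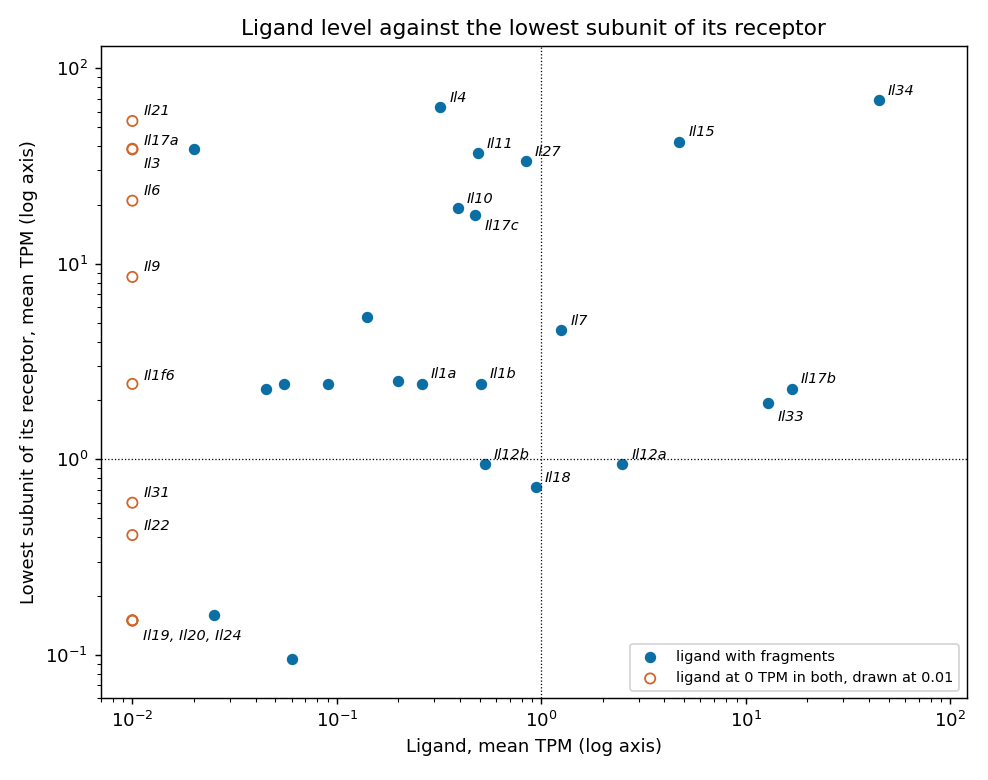
Mean TPM of each of 34 ligands (horizontal, log axis) against the mean TPM of the lowest subunit of its receptor (vertical, log axis), with dotted lines at 1 TPM; ligands at 0 TPM in both libraries are open circles at the left edge. Most points lie in the upper left, with a receptor above and a ligand below 1 TPM, and Il34, Il15, Il17b, Il33 and, by its mean, Il7 lie to the upper right.

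Transcripts were compared next, since several of these genes make soluble or alternative forms. Of the members at 1 TPM or more in both replicates, 14 have 1 annotated transcript and 25 have several. The most abundant transcript was the same in both libraries for 19 of the 25. These include Il17rb, whose transcripts Il17rb-201 and Il17rb-202 were tied in replicate 2, at 42.4% each. The leading transcript differed for Il11ra1, Il17rc, Il17re, Il18r1, Il1rl1 and Il20rb. Ranking by posterior mean TPM also gave 6 differing members, with Il17rb in place of Il17re.

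For 2 members the TPM went one way between the libraries and the count ratio, scaled by total counts, went the other. Il15ra was higher in replicate 2 by TPM, at 62.2 and 84.9. By counts it was lower, with 2713 and 1264 fragments and a log2 count ratio of -0.69. The transcript Il15ra-215, of 405 nt and with an incomplete coding end in the annotation, took 26.1% and 71.4% of the gene's TPM from 136 and 356 fragments. Summed over transcripts of at least 500 nt, Il15ra stood at 40.6 and 20.98 TPM, so the direction turned. Retained-intron and other transcripts without a coding sequence took 42.5% and 16.9% of the gene. Il1rn likewise stood at 1.18 and 1.64 TPM with 98 and 58 fragments. Its log2 count ratio was -0.35, with an interval of -0.84 to 0.14 that spans no change. Its transcript Il1rn-205, of 321 nt, took 37.1% of the TPM in replicate 2 from 2 fragments, and without short transcripts Il1rn stood at 1.18 and 1.03 TPM. Its main transcript Il1rn-201, with 178 codons, took 68.9% and 62.9%. Among the 41 members with a mean of at least 1 TPM, transcripts under 500 nt took over 5% in 6, and these 2 were the only ones whose direction turned without them.

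Il1rl1 makes a long membrane receptor for IL-33 and a short secreted form that binds IL-33 as a decoy. The transcripts of 337 codons, the short form, took 51.7% and 47.4% of the gene's TPM, or 1.33 and 0.64 TPM. Those of 567 codons, the long form, took 48.3% and 52.6%, or 1.23 and 0.70 TPM. The forms were thus near equal by TPM in both libraries. By fragments the long form had more, 265 and 108 against 75.6 and 32.3, as its transcripts are longer. The coding sequences share 985 bases (328 codons) and then part, the long form crossing a splice junction and the short form reading on to its own stop. The last 30 shared bases are shown in lower case, and the capitals mark the first 30 bases of the long form alone and the last 29 of the short form, which end in its stop codon.
Long form, Il1rl1-202, between chr1:40446646 and 40450104, plus strand: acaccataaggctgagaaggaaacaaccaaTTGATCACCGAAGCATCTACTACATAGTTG
Short form, Il1rl1-205, chr1:40446646-40446704, plus strand: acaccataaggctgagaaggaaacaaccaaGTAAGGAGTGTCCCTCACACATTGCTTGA

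Il33 was read mostly from its upstream start. Transcripts from that start took 96.8% and 100% of the gene, from 1800 and 518 fragments. The downstream start, the one with TATAAA in the sequences above, was assigned 59.3 fragments in replicate 1 and none in replicate 2. By posterior mean TPM its transcript Il33-201 had 1.25 and 0.53 TPM, beside 17.1 and 6.66 TPM for Il33-202 of the upstream start. The absence in replicate 2 thus depends on the estimate. Both starts lead to the same 266 codons.

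Other members divided their TPM among several transcripts. For Il34, Il34-201 (235 codons) took 43.7% and 37.5%, and transcripts without a coding sequence took 50.8% and 50.2%. For Il16, the leukocyte form Il16-203, with 624 codons, took 84.5% and 85.5%, and the long form Il16-201, with 1322 codons, took 8.40% and 7.89%. The second coding transcript of Il34, Il34-204 with 219 codons, took 5.53% and 12.3%, from 161 and 279 fragments. The shares of Il16 were thus alike between libraries, and those of Il34 were less so. Il4i1-201 took 50.6% and 69.7% of Il4i1. For Il11ra1 the 2 main transcripts encode the same 432 codons and changed places, Il11ra1-204 with 47.7% and 32.3% and Il11ra1-201 with 25.5% and 41.3%. For Il17rc, transcripts that the later annotation does not hold took 68.7% and 52.4%, and the coding transcript Il17rc-201 took 31.3% and 47.6%. Il20rb led with a coding transcript in replicate 1 (62.1%) and with the non-coding Il20rb-205 in replicate 2 (47.8%). Il18r1 led with Il18r1-205, of 267 codons, in replicate 1 (41.2%) and with the full-length Il18r1-202, of 537 codons, in replicate 2 (47.3%). Il17re had its transcripts of 637 and 436 codons at nearly equal shares, with Il17re-202 at 54.3% and 49.7%. Il4ra, Il6ra, Il7r and Il18bp have 1 transcript each in the tables, so no soluble form of these could be separated.

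**Figure D3:**
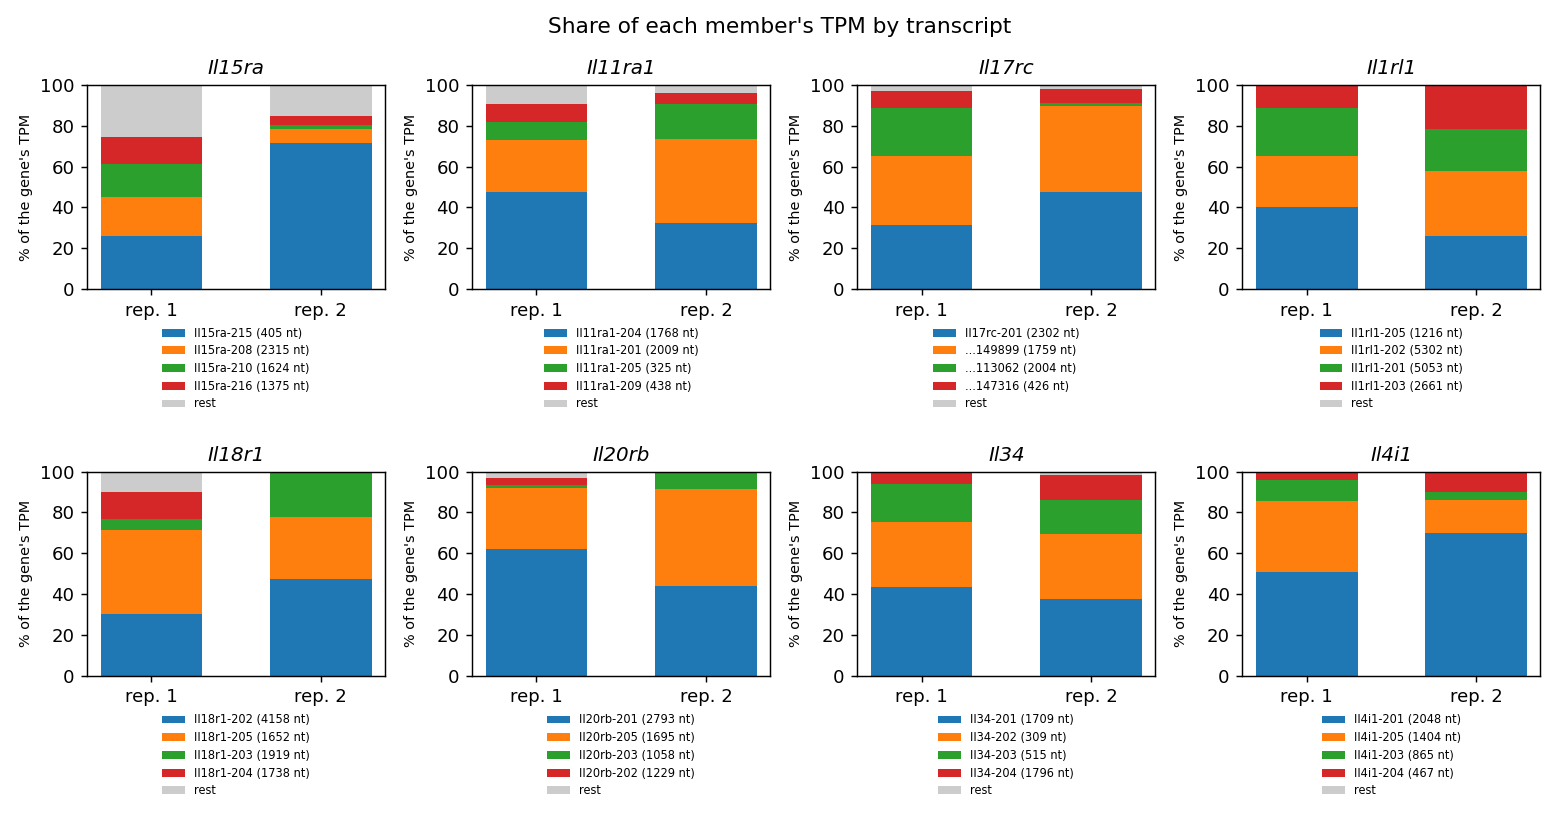
Percent of each gene's TPM taken by its 4 leading transcripts, coloured and named with their length under each panel, and by the rest (grey), in replicates 1 and 2, for 8 members. The blue segment of Il15ra, the transcript of 405 nt, grows from 26.1% to 71.4%, and in Il34 the coding Il34-204 goes from 5.53% to 12.3%.

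Between the libraries, a member was called beyond 2-fold where the 95% interval of its count ratio (Clopper-Pearson, scaled by total counts) lay wholly beyond 2-fold. The interval covers counting error only. Of the 41 members with a mean of at least 1 TPM, 5 were higher in replicate 2 by this rule and 2 higher in replicate 1, beside 8.66% and 8.97% of the 13272 protein-coding genes tested. Il4i1 had the highest ratio, with 2348 and 6972 fragments and a log2 count ratio of 1.98 (interval 1.91 to 2.05). Among the others higher in replicate 2, Il17d had 545 and 1176 fragments and a log2 ratio of 1.52 (1.37 to 1.67). Il3ra, with 1076 and 2046 fragments, had a log2 ratio of 1.34 (1.23 to 1.45). Il21r, with 3072 and 5717 fragments, had 1.31 (1.24 to 1.37), and Il17b, with 193 and 358 fragments, had 1.30 (1.04 to 1.56). The members higher in replicate 1 were Il1r2, with 602 and 145 fragments and a log2 ratio of -1.64 (-1.92 to -1.38), and Il33, with 1859 and 518 fragments and a log2 ratio of -1.43 (-1.58 to -1.29). Scaled by spike-in RNA instead of total counts, 15 members were called higher in replicate 2 and 0 in replicate 1, beside 31.8% and 2.70% of all genes tested. Across the 41 members TPM ranked alike in the libraries, with a Spearman rho of 0.932, a description over genes that share the same 2 libraries.

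**Figure D4:**
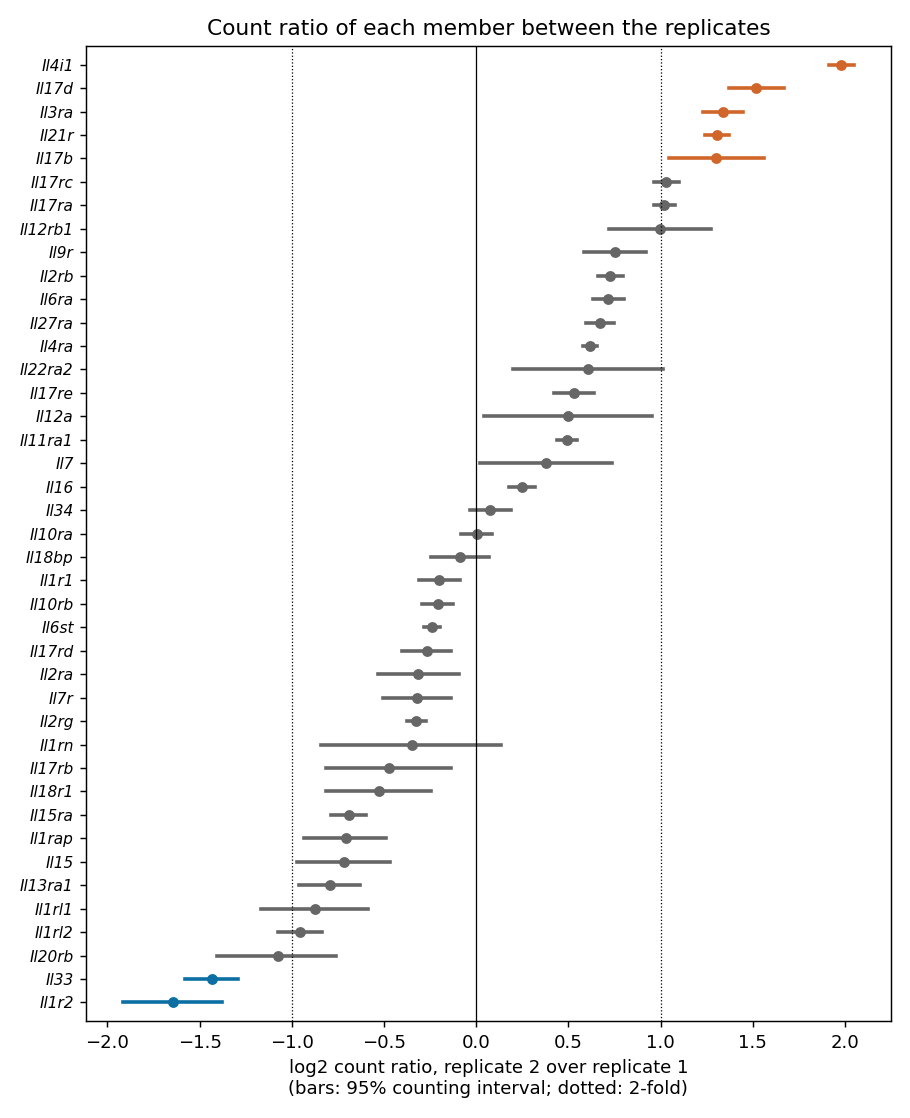
Log2 count ratio of replicate 2 over replicate 1 for the 41 members with a mean of at least 1 TPM, with 95% counting intervals as bars and dotted lines at 2-fold. Intervals of 5 members, orange, lie wholly above the upper line and those of 2 members, blue, wholly below the lower line.

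These differences went with the GC content of the genes. Of the 20 members with the lower GC content, up to 50.4%, 5 were higher in replicate 2 on log2(TPM + 1), and of the 21 with the higher, from 50.6%, 18 were. Across the 41 members the Spearman rho of GC content with the difference was 0.720, beside 0.530 across all genes tested, and members and genes share the same 2 libraries. With the median trend on GC content removed, the calls became 3 higher in replicate 2 and 1 in replicate 1. Of all genes tested, 6.45% and 4.22% were then called. Il4i1 and Il1r2 kept their calls, Il17d, Il3ra, Il21r, Il17b and Il33 did not, and Il7 and Il22ra2, of low GC content, were added. The median log2 difference of the members was 0.28, and 0.06 over all genes tested. After removal it was 0.15 for the members and 0.0008 over all genes tested.

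**Figure D5:**
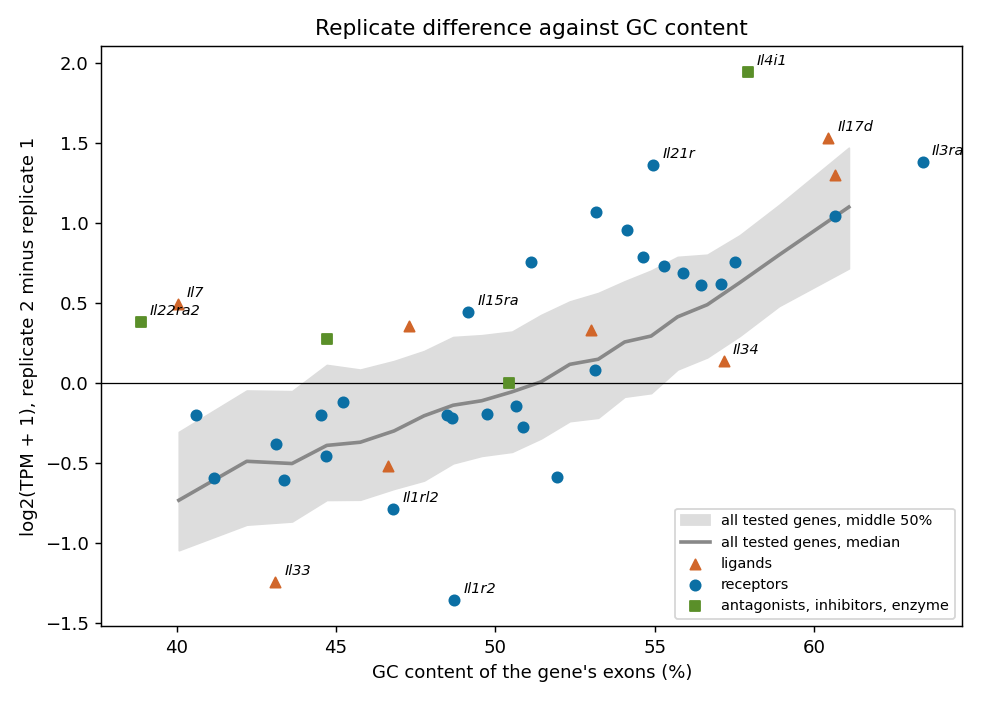
Difference in log2(TPM + 1), replicate 2 minus replicate 1, against the GC content in percent of each gene's exons, for the 41 members by role, over the median (line) and middle 50% (band) of all genes tested in 20 bins. The points climb with the line, and Il4i1 lies above and Il1r2 below the band.

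Markers of immune cells and skin also differed between the libraries. B cell markers summed to 334 and 594 TPM, with Cd79a at 169 and 380 TPM, and lymph node markers to 1074 and 1292 TPM, beside the higher Il4i1 and Il21r of replicate 2. The NK and innate lymphoid list summed to 51.1 and 137 TPM, but its members diverged. Gata3, which luminal epithelium also expresses, made up most of it at 47.98 and 128 TPM, and Eomes was at 0.82 and 7.54 TPM, whereas the NK markers Ncr1, at 1.34 and 1.02 TPM, and Klrb1c, at 0.96 and 0.68 TPM, were lower in replicate 2. T cell markers summed to 157 and 179 TPM. Mast cell markers summed to 99.4 and 49.5 TPM, macrophage markers to 179 and 150 TPM, neutrophil markers to 9.58 and 2.79 TPM and the keratinocyte markers to 75.99 and 3.59 TPM, beside the higher Il33, Il1r2, Il1rl1, Il1f5 and IL-36 ligands of replicate 1. Within these lists Fcer1a of mast cells gave 13 and 3 fragments and Ly6g of neutrophils gave 5 and 0. The part of these cells, and of the muscle RNA in replicate 1, in the members' differences was not tested.

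Most of the wider pathway was present. Of 43 listed genes that carry or regulate these signals, 40 had at least 1 TPM in both replicates, and of 41 tested 30 were higher in replicate 2 on log2(TPM + 1), beside 53.2% of all genes tested. Of the 41, 4 were called higher in replicate 2 and 0 in replicate 1, beside 8.66% and 8.97% of all genes, so the share called higher was near that of all genes. Jak3, the kinase bound to the common gamma chain, had 40.3 and 101 TPM (log2 count ratio 1.22, interval 1.17 to 1.26). The feedback inhibitors Socs1, at 19.3 and 96.7 TPM, and Socs3, at 15.9 and 50.4 TPM, had ratios of 2.24 (2.13 to 2.35) and 1.57 (1.48 to 1.65). The fourth was Crlf2, which pairs with Il7r to bind TSLP, at 14.5 and 85.7 TPM and a ratio of 2.48 (2.36 to 2.60). Stat5a and Stat6, which act below prolactin and IL-4 receptors, stood at 61.3 and 100 TPM and at 98.2 and 96.8 TPM. Adaptors were present throughout, with all 8 listed for IL-1 receptors and all 3 for IL-17 receptors above 1 TPM in both libraries and none of them beyond 2-fold. Irak1, a kinase below the IL-1 receptors, was the highest of these, at 170 and 326 TPM. The 8 partner subunits and receptors that lack an Il name were also all above 1 TPM in both. Csf2rb, the signalling chain that joins Il3ra and Il5ra, was at 49.1 and 63.1 TPM, so the IL-5 receptor was incomplete through Il5ra alone. Osmr, which joins Il31ra, was at 15.9 and 8.15 TPM, and its partner was again the scarce chain. Casp1, the protease that matures IL-1 beta and IL-18, was at 1.75 and 0.96 TPM. Tslp, the epithelial cytokine that Crlf2 binds, gave 20 and 1 fragments, and Csf2 gave 1 and 3. The median log2 difference over the tested genes of this list was 0.36, beside 0.06 over all genes tested. GC content was not removed from the values of this list, so its part in them was not tested.

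Many members lie next to each other in the genome, and 37 of the 82 fall in 13 clusters with gaps of at most 100 kb. The longest row holds Il1r2, Il1r1, Il1rl2, Il1rl1, Il18r1 and Il18rap on chromosome 1 (40074079 to 40551705, mm10, 478 kb). All 6 genes of this row gave fragments in both libraries and all were lower in replicate 2 by TPM, but Il1r1 and Il18rap turned higher with GC content removed, and Il1r1, Il18r1 and Il18rap on spike-in totals. A second row of 6 on chromosome 2 (24153161 to 24351494) holds the IL-36 ligands Il1f6, Il1f8 and Il1f9 with Il1f5, Il1f10 and Il1rn, where only Il1rn passed 1 TPM in both. On chromosome 1 (130882074 to 131024974), Il24, Il20 and Il19 had no fragment and their neighbour Il10 had 24 and 9. On chromosome 11 (53602982 to 53725106), the type 2 cytokines Il4, Il13 and Il5 gave 8 and 2, 5 and 5, and 2 and 1 fragments. Among neighbouring receptor genes, Il17re and Il17rc on chromosome 6 (113458484 to 113483140) and Il4ra and Il21r on chromosome 7 (125552120 to 125633570) were all higher in replicate 2 by TPM. With GC content removed, Il17rc hardly differed, by 0.0007 on log2(TPM + 1). Il12rb2 and Il23r on chromosome 6 (67291318 to 67491855), and Il6st and Il31ra on chromosome 13 (112464070 to 112594360), were lower in replicate 2 by TPM. Il23r hardly differed, at 0.10 and 0.09 TPM from 10 and 6 fragments. With GC content removed, Il12rb2 and Il23r turned higher, Il6st did so by counts alone, and Il31ra stayed lower.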

How the data were processed

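Poly(A) RNA of mouse mammary gland was measured in 2 libraries of 1 group. The tables for genes and for transcripts, as the authors deposited them, give expected counts, TPM, FPKM and posterior mean TPM per the file headers. The transcript tables deposited by the authors add the percent of a gene's TPM in each isoform. Assembly mm10 and annotation GENCODE M4 are per the text notes beside the tables. Aligner and quantifier: not given in the sources used here. GENCODE M21, a later release for mm10, supplied gene names, biotypes, positions and exon GC content and named 42462 of 43346 genes. Contigs and junctions were not used here, and 97 spike-in entries and 26248 entries with a number for a name (0 counts) were kept out of totals.

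The members, roles, receptor pairs and lists were chosen with earlier results of these data known. Every member with a mean of at least 1 TPM was named with both values, each beyond 2-fold with its interval, and lower ligands and subunits with fragments. For the 95% Clopper-Pearson interval of the ratio, expected counts were rounded and total counts set the scale, and the interval code was checked on drawn counts. The pseudocount was 1, and GC content was removed as the median in 20 bins. Intervals and the floor of 3 fragments cover counting error only. Motif and CpG values came from RefSeq promoters. Proteins were not used here. The rescaling without mitochondrial and muscle genes and the limit of 500 nt on transcripts were chosen after seeing the data. Tools were R 4.3.3, edgeR 4.0.16 (TMM factors), DESeq2 1.42.0 (size factors) and Python 3.11.15 with scipy 1.17.1, pandas 2.3.3, matplotlib 3.10.9 and numpy 2.4.6.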

Additional observations from a re-analysis of the deposited data

How the results depend on the processing

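Ligands at 1 TPM in both replicates numbered 7, and 11 at a limit of 0.5 TPM, and receptors numbered 29, and 18 at 5 TPM. Ligands with a complete receptor numbered 24, and 13 at 5 TPM, and those also at the limit themselves numbered 4, 9 at 0.5 TPM and 1 at 5 TPM. With a replicate left out these 4 counts ranged from 8 to 9, 29 to 30, 24 to 26 and 4 to 6. Members beyond 2-fold numbered 5 higher in replicate 2 and 2 higher in replicate 1. These became 15 and 0 scaled by spike-in totals, where the median log2 ratio of all genes tested shifted to 0.72 and 31.8% and 2.70% of them were called. They became 11 and 7 at 1.5-fold, where 19.0% and 20.8% of all genes were called, and 3 and 1 with GC content removed, where 6.45% and 4.22% were. Without the level filter they became 6 and 5, beside 8.26% and 9.12% of 16427 genes. The median log2 difference of 0.28 became 0.0747 on TMM-scaled counts, 0.0825 on transcripts of 500 nt or longer and 0 with no filter, where the median of all protein-coding genes was also 0. Leaving out mitochondrial and muscle genes and rescaling gave 0.09, beside -0.16 over all genes tested. Members whose leading transcript differed numbered 6, and 3 at a 5 TPM minimum. The other alternatives kept these counts within 1.5 times, and the median ranged from 0 to 0.34 over all settings. Mean FPKM differed from mean TPM by more than the SD for 15 members. These are unlike scales, so this count does not show how the levels depend on processing. No paired analysis was possible because both libraries belong to 1 group. Depth limits the members under 1 TPM, whose levels rest on few fragments.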
